A study of Drosophila simulans and Drosophila kikkawai and Drosophila takahashii with 176 samples.

Results

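Transcript levels in the accessory gland (AG) of Drosophila biarmipes were set against those in its testis. The comparison took in 9 libraries, 5 AG and 4 testis, out of 93 libraries in a series that covers both organs in 11 Drosophila species. The members were the libraries named in the deposited D. biarmipes tables, and both tables list the same 15066 genes, of which 14541 were above 0 in at least 1 library. The accessory gland is a paired secretory organ of the male reproductive tract whose epithelium makes seminal fluid proteins, which pass to the female at mating and are known to alter female egg laying and receptivity. The testis holds the germline from stem cells through meiosis to sperm, and it is known for transcribing many genes that are used in few other organs.

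Each library was made from poly(A) RNA of about 25 pooled adult males of mixed stage. AG libraries 106 and z3 and testis libraries 48 and z4 came from the strain whose genome was sequenced, 361.0-iso11 (14023-0361.10). AG libraries 113, 37 and 8 and testis libraries 52 and 78 came from a second strain, 361.3-iso10 (14023-0361.08). The labels name no mutation, transgene or treatment for any of them. Reads of both strains were aligned to the genome of the first. The tables give a serial number for each gene and do not pair it with a gene name, so lists of seminal fluid, germline, muscle, fat body and duct genes could not be applied and the organ labels were not checked against markers. Only the 2 genes of largest difference in each direction are printed by identifier, and other genes are given by their rank.

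The values are the authors' TPM for each gene, a relative transcript abundance adjusted for length, and their total over the listed genes was not 1000000. It lay between 1095056 and 1575252 in the AG libraries and between 922147 and 1077089 in the testis libraries. The files hold no read counts, so the depth behind a value is unknown here and low values carry a counting error that cannot be given. On log2(TPM + 1), the Pearson correlation across genes was 0.899 to 0.990 between AG libraries (10 pairs), 0.956 to 0.992 between testis libraries (6 pairs) and 0.298 to 0.545 between organs (20 pairs). These are descriptions over 14541 genes, which are not independent replicates. AG z3 and testis z4 stood apart: they gave the highest value between organs, 0.545, and AG z3 had the lowest values within the AG. They share a dissector, the HiSeq 2500 platform and the names of both sequencing runs. The other AG and testis libraries were dissected by different people, so dissector and organ cannot be told apart in them.

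The AG transcriptome was carried by few genes. The 10 most abundant genes of a library held 19.9%, 47.9%, 37.1%, 38.9% and 47.4% of all TPM in AG libraries 106, z3, 113, 37 and 8, against 11.2%, 8.38%, 7.77% and 9.05% in testis libraries 48, z4, 52 and 78. Every AG library lay above every testis library, and AG 106 was the lowest of the AG libraries. The means were 38.2% ± 11.3 in the AG (SD, n = 5) and 9.10% ± 1.49 in the testis (SD, n = 4), a difference of 29.1 percentage points (two-sided exact permutation test, p = 0.0159, the smallest that 5 against 4 libraries allow). The 100 most abundant genes held 66.6% ± 7.44 of AG TPM and 26.3% ± 0.69 of testis TPM. The single most abundant gene held 10.7% ± 4.18 in the AG, against 5.05% ± 1.66 in the testis (two-sided exact permutation test, p = 0.0476). The number of genes that together held the first 50% of TPM was 82, 12, 35, 27 and 12 in the AG libraries, in the order above, against 549, 537, 557 and 519 in the testis libraries.

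**Figure D1:**
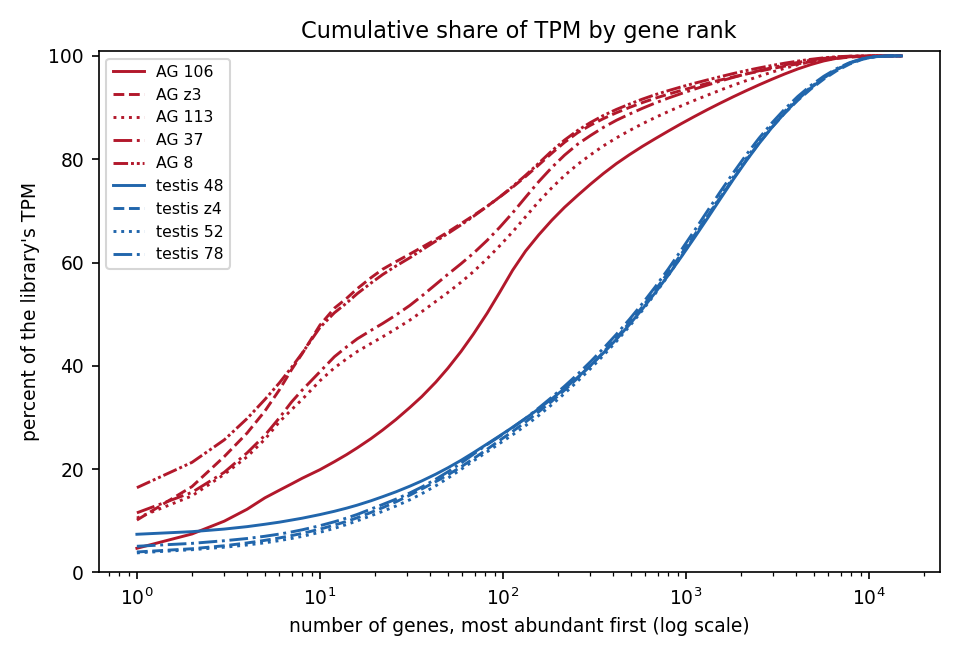
Cumulative percent of each library's TPM (vertical axis) over its genes, ranked from the most abundant on a log scale (horizontal axis), with 1 line per library, AG in red and testis in blue. At 100 genes the AG lines lie between 55.3% and 73.2% and the testis lines between 25.4% and 26.9%.

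The testis libraries held more genes at or above 1, 10 and 100 TPM. The share of listed genes at 1 TPM or more was 55.4%, 58.9%, 52.6%, 52.2% and 50.7% in AG libraries 106, z3, 113, 37 and 8, against 74.5%, 75.3%, 74.98% and 74.6% in testis libraries 48, z4, 52 and 78. The groups did not overlap, and the means differed by -20.9 percentage points (54.0% ± 3.27 in the AG, against 74.8% ± 0.39 in the testis, two-sided exact permutation test, p = 0.0159). At 10 TPM the shares were 27.6% ± 4.78 in the AG, against 49.2% ± 0.999 in the testis, and at 100 TPM they were 5.29% ± 0.92 in AG libraries, against 14.4% ± 0.66 in testis libraries. The share of genes listed at 0 was 18.3% ± 3.34 in the AG, against 8.99% ± 1.88 in the testis. Across the 8 measures of this kind that were tested, the Benjamini-Hochberg adjusted exact permutation p was 0.0181 for 7 and 0.0476 for the share of the top gene. At the upper end the order turned round: 151 to 208 genes reached 1000 TPM in an AG library, against 99 to 111 in a testis library. All these thresholds were applied to the values as deposited, whose totals were unequal, and not under another scaling.

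Presence was then read over all libraries of an organ. At 1 TPM, 7028 genes passed in every AG library, 10429 in every testis library, and 6561 in all 9 libraries. Genes at 1 TPM or more in every AG library and below it in every testis library numbered 100, against 1776 genes with the opposite pattern. With a wider gap, at least 10 TPM in every library of one organ and under 1 TPM in every library of the other, 23 genes were limited to the AG and 839 to the testis. These counts moved with single libraries: without AG z3 they were 36 and 1686, without testis z4 54 and 939, and without both 69 and 1792. Only 6 genes at 10 TPM or more in every testis library were listed at 0 in every AG library, and 0 genes had the reverse pattern. The thresholds were applied to the values as deposited, and the counts were not repeated under another scaling. Median-of-ratios factors, used below, were 0.469 to 1.045 in the AG libraries and 1.45 to 1.66 in the testis libraries. By that measure a fixed threshold was stricter for AG libraries.

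Gene by gene, 1473 genes were higher in the AG, against 6344 in the testis (limma on log2(TPM + 1) with the strain as a covariate, adjusted p under 0.05 and a log2 difference of at least 1), which is 10.1% and 43.6% of the 14541 genes tested. The organs' libraries did not overlap at all for 1484 genes with the AG above, 10.2% of genes, and for 7106 with the testis above, 48.9%. The balance of these counts rests on the scaling of the libraries. The median log2 difference of all genes, AG minus testis, was -0.72 with the values as deposited. It was -0.87 when each library was rescaled to 1000000, -0.12 with median-of-ratios factors and 0.23 after quantile normalization. The counts higher in the AG and in the testis were 1201 and 6811 when rescaled, 3053 and 4495 with median-of-ratios factors, and 4790 and 3417 after quantile normalization. The AG share of the calls was thus 18.8%, 14.99%, 40.5% and 58.4% under the 4 scalings. Called in one direction under all 4 were 1197 genes higher in the AG, 8.23% of genes, and 3406 higher in the testis, 23.4%. In bulk organs, fewer cells of a type and less RNA per cell cannot be told apart.

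**Figure D2:**
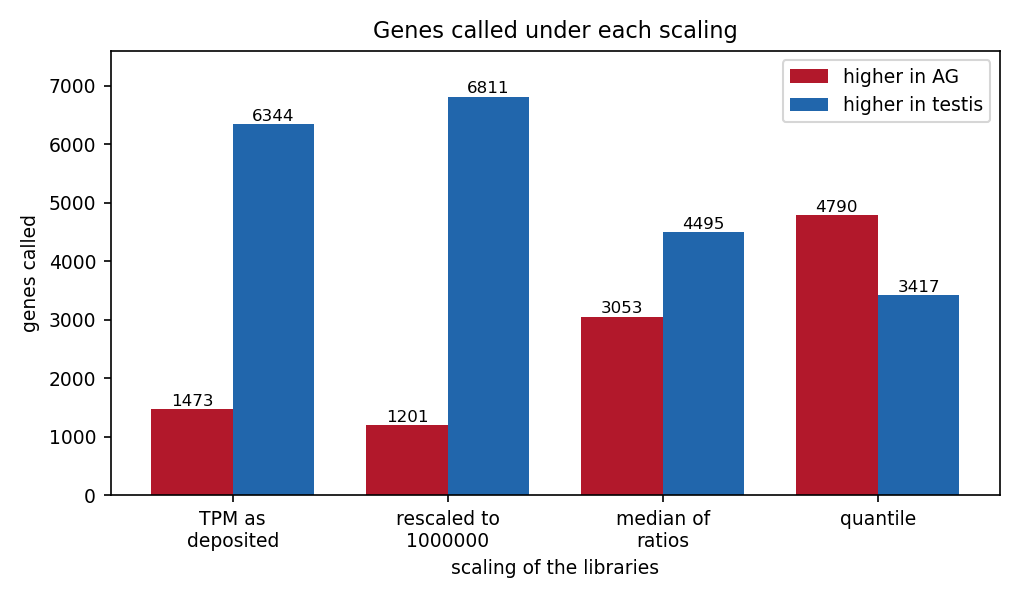
Number of genes called higher in the AG (red) and in the testis (blue) under each of 4 scalings of the libraries. The testis count is the larger under the first 3 scalings, 6344, 6811 and 4495, and the AG count is the larger after quantile normalization, 4790.

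The 1473 genes higher in the AG held 83.2% to 90.4% of the TPM of an AG library and 5.71% to 8.92% of the TPM of a testis library. The 6344 genes higher in the testis held 2.17% to 4.81% of an AG library and 80.8% to 85.2% of a testis library. Calls in both directions thus took in most of the transcripts of each organ. The genes were called as higher in these same libraries with the values as deposited, which favours such shares. The median absolute log2 difference was 2.11 among the genes higher in the AG, against 2.87 among those higher in the testis. Differences of at least 4 on the log2 scale were 315 of 1473 genes (21.4%) in the AG direction and 2307 of 6344 (36.4%) in the testis direction, and differences of at least 8 were 65 and 185.

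**Figure D3:**
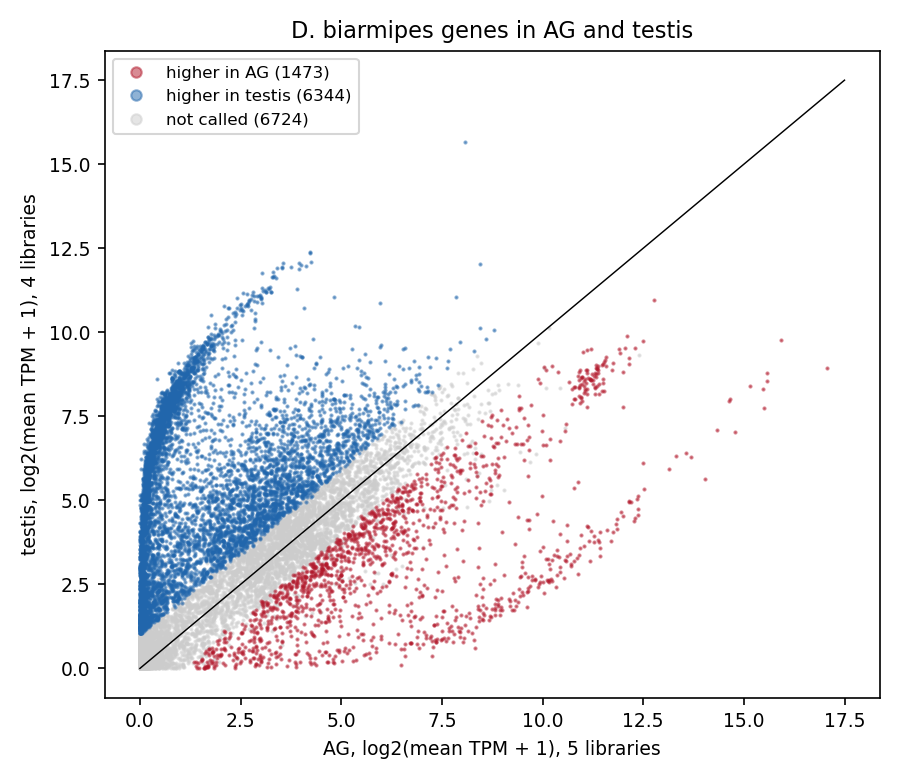
Each point is 1 of 14541 genes, placed by log2(mean TPM + 1) over the 5 AG libraries (horizontal axis) and over the 4 testis libraries (vertical axis), with genes higher in the AG in red, genes higher in the testis in blue and uncalled genes in grey. The black line marks equal levels, and the blue cloud above it holds 6344 genes against 1473 red ones below it.

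With the values as deposited, the direction of the calls changed with level. Among the 3441 genes whose higher organ mean lay from 1 to 10 TPM, 6.13% were higher in the AG, against 42.8% in the testis. Among 5743 genes from 10 to 100 TPM the shares were 12.1% and 52.4%, and among 2359 genes from 100 to 1000 TPM they were 15.9% and 74.7%. Of the 298 genes with a mean of 1000 TPM or more in an organ, 191 (64.1%) were higher in the AG, 101 (33.9%) were higher in the testis and 6 were not called. Under all 4 scalings the counts in this top class were 185 and 99. The lower classes kept fewer of their testis calls under all 4 scalings. These were 290 of 1474 from 1 to 10 TPM, 1528 of 3008 from 10 to 100 TPM and 1489 of 1761 from 100 to 1000 TPM. A larger part of the AG calls was kept in each of these classes, 514 of 695 from 10 to 100 TPM. The choice of the deposited values as the start favours this. Their AG count, 1473, lay near the lowest of the 4 scalings, 1201, and their testis count, 6344, far above its lowest, 3417. Among the calls kept under all 4 scalings, testis calls stayed the more numerous in each of these classes. After quantile normalization alone, 4790 genes of any level were higher in the AG, against 3417 in the testis. The top class held only 298 genes, so the lead of testis calls below it, and not only its size, rested on the scaling. None of the 2700 genes below 1 TPM in both organs could reach the required difference. Since the class was set by the higher of the 2 means, these shares describe the genes and were not tested.

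The 10 genes of largest difference in the AG direction had log2 differences from 9.50 to 8.95, and all 10 were called under all 4 scalings. Their mean AG level ran from 13100.4 to 137706 TPM, and each was among the 100 most abundant AG genes. The gene dbia_gene8068 had 26143, 45054, 43898, 49587 and 65113 TPM in AG libraries 106, z3, 113, 37 and 8, against 0.40, 597, 188 and 61.9 TPM in testis libraries 48, z4, 52 and 78. The AG libraries were all far above the testis libraries, which spread over more than 3 powers of 10 among themselves. Its log2 difference was 9.50 ± 1.49 (SE, limma adjusted p = 0.00037), and it was 7.81 without testis 48 and 10.93 without testis z4. The gene dbia_gene12982 had 31356, 10346, 14459, 13245 and 15184 TPM in the same AG libraries, against 1.04, 110, 67.8 and 14 TPM in the testis libraries. AG 106 was the highest and testis 48 the lowest, and the log2 difference was 9.44 ± 1.08 (SE, limma adjusted p = 4.3e-05). It was 8.27 without testis 48, 10.33 without testis z4 and 10.08 without testis 52.

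The most abundant AG gene took between 4.68% and 16.4% of the TPM of an AG library. It had 53029, 70967, 136967, 169029 and 258538 TPM in AG libraries 106, z3, 113, 37 and 8, against 8.60, 1188, 497 and 249 TPM in testis libraries 48, z4, 52 and 78. The 3 libraries of the second strain were above both of the first in the AG, a difference that was not tested within the AG. The difference of the organ effect between strains was -0.16 ± 2.60 on the log2 scale (SE, limma adjusted p = 0.9999). That value also takes in the testis libraries, which were at 8.60 and 1188 TPM in the reference strain. The next gene had 16814, 110989, 54247, 57881 and 68412 TPM in the AG, against 1.67, 3297, 150 and 72.1 TPM in the testis. AG z3 was highest there and so was testis z4. All 5 of the most abundant AG genes were called higher in the AG under all 4 scalings.

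In the testis direction the 10 largest log2 differences lay between -9.34 and -8.87, and all 10 were called under all 4 scalings. The gene dbia_gene6208 had 6.94, 62.3, 1.19, 1.74 and 0.85 TPM in AG libraries 106, z3, 113, 37 and 8, against 5309, 5053, 3266 and 3543 TPM in testis libraries 48, z4, 52 and 78. The testis libraries of the reference strain were above those of the second strain, and AG z3 was above the other AG libraries. The log2 difference was -9.34 ± 0.69 (SE, limma adjusted p = 1.8e-06), and -10.14 without AG z3. The gene dbia_gene10674 had 5.93, 23.3, 2.31, 2.92 and 1.19 TPM in the AG, against 2947, 3631, 3644 and 3717 TPM in the testis. AG z3 was again the highest AG library, and the log2 difference was -9.21 ± 0.52 (SE, limma adjusted p = 2.7e-07). The most abundant testis gene had 71.9, 1134.9, 20.3, 66.5 and 54.2 TPM in the AG libraries, against 77749, 36506, 40787 and 53705 TPM in the testis libraries, where it held 3.79% to 7.39% of the TPM. The next testis gene averaged 17.54 TPM in the AG, against 5414 ± 1198 TPM in the testis (SD, n = 4).

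The most abundant genes of the AG fell into 2 classes by their organ difference, and those of the testis did not. Of the 100 most abundant AG genes, 53 differed by less than 4 on the log2 scale (51 of them by 2 to 4), 46 by 6 or more and 1 in between. The class below 4 had a median mean level of 2653 TPM in the AG, against 453 TPM in the testis, so these genes were abundant in both organs. The class of 6 or more had a median of 4973 TPM in the AG, against 27.7 TPM in the testis. It held 30.0%, 63.3%, 51.3%, 54.6% and 63.1% of the TPM of AG libraries 106, z3, 113, 37 and 8, against 0.0043%, 1.69%, 0.232% and 0.103% of testis libraries 48, z4, 52 and 78. The class below 4 held 21.3%, 8.51%, 11.8%, 12.3% and 9.37% of the same AG libraries, so that AG 106 was the lowest for the class of 6 or more and the highest for the class below 4. Of the 100 most abundant testis genes, 91 differed by 6 or more toward the testis, 3 by 4 to 6 and 6 by less than 4. Only 1 gene was among the 100 most abundant of both organs. Both lists were ranked on the values that give the difference, and the limits of 4 and 6 were set after the values were seen, so no test was made.

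**Figure D4:**
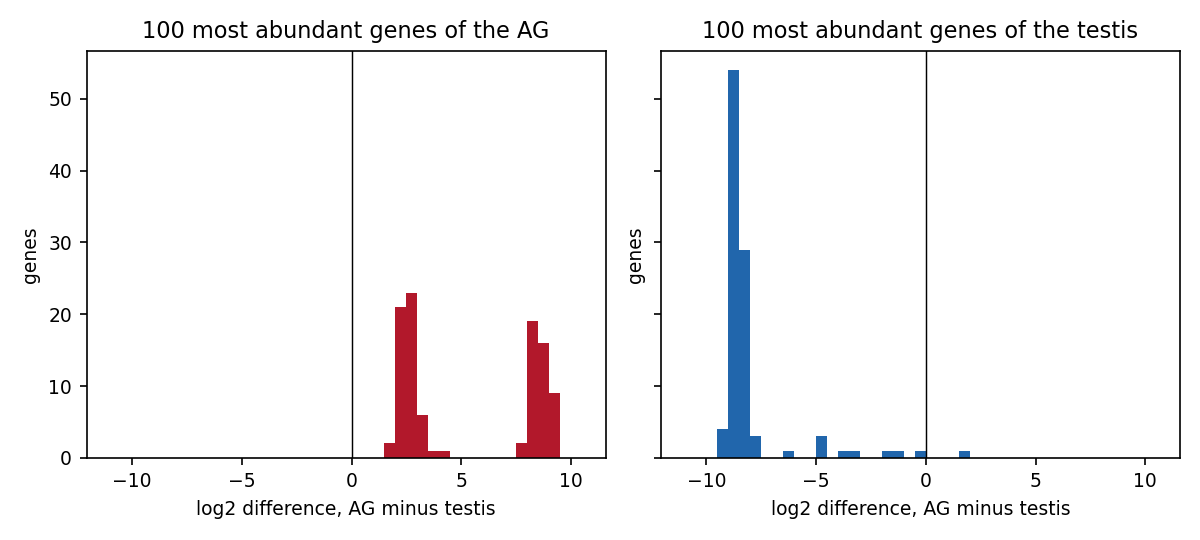
Distribution of the log2 difference, AG minus testis (horizontal axis, bins of 0.5), over the 100 most abundant genes of the AG (left) and of the testis (right), with the number of genes on the vertical axis. The AG genes form separate groups of 53 below 4 and 46 at 6 or more, and 91 of the testis genes lie at -6 or beyond.

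Transcripts typical of one organ were measured in the libraries of the other at a level that differed from library to library. The 1345 testis-higher genes with a log2 difference of 6 or more held 0.124%, 0.608%, 0.0590%, 0.0744% and 0.0440% of the TPM of AG libraries 106, z3, 113, 37 and 8, against 55.9% to 60.6% of the testis libraries. In AG z3 the median gene of this set stood at 0.920% of its testis mean (interquartile range 0.738% to 1.11%), and in the other AG libraries the median was 0.0715% to 0.191%. The 212 AG-higher genes of the same size held 38.8% to 70.9% of the AG libraries, against 0.0119%, 1.89%, 0.289% and 0.125% of testis libraries 48, z4, 52 and 78. In testis z4 the median gene of that set was at 1.37% of its AG mean (interquartile range 1.01% to 1.94%), and in testis 48 it was at 0.0124%, with 55 of the 212 genes listed at 0. AG z3 and testis z4 thus held the most transcripts of the other organ. The genes were chosen for a large mean difference over these same libraries, which favours low percentages, and the part of such transcripts in the counts was not tested. Without both libraries 1699 genes were higher in the AG, against 6181 in the testis, and 1354 and 3419 were so under all 4 scalings.

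**Figure D5:**
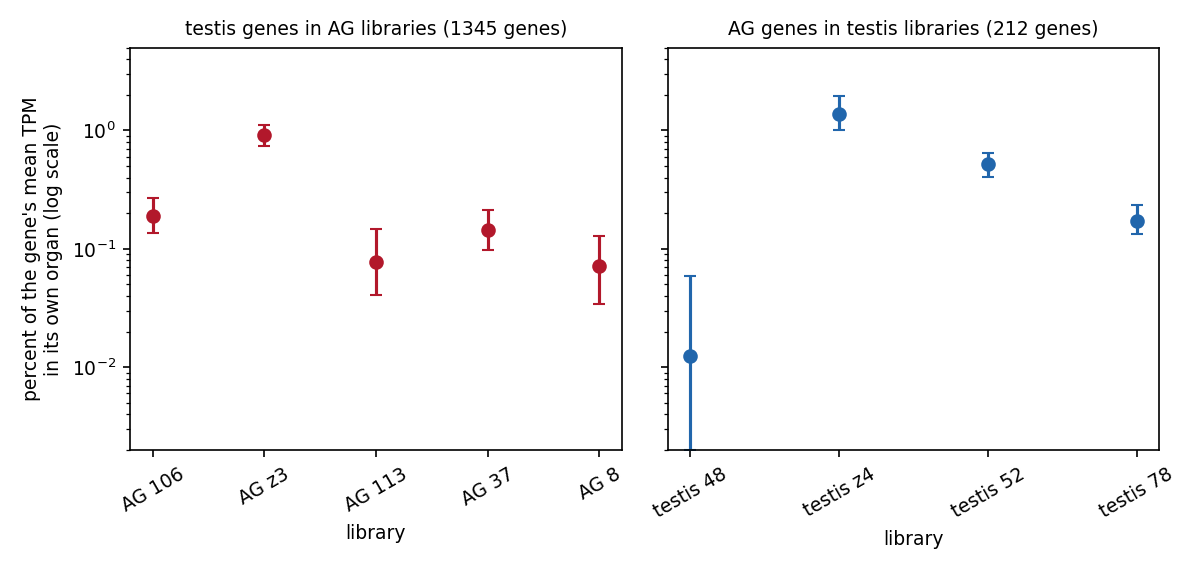
Level of the 1345 testis-higher genes in each AG library (left) and of the 212 AG-higher genes in each testis library (right), as a percent of the gene's mean TPM in its own organ on a log axis. Points are medians over genes and bars are interquartile ranges (the bar of testis 48 reaches 0 and is clipped at the axis); AG z3 and testis z4 stand highest, at 0.920% and 1.37%.

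The AG libraries also varied more among themselves. The median SD per gene on the log2(TPM + 1) scale was 0.405 over the AG libraries and 0.240 over the testis libraries, and 0.260 and 0.165 without AG z3 and testis z4. Testis 48, 52 and 78 shared a dissector, while AG 106 and 113 had one dissector and AG 37 and 8 another. Organ and dissector thus cannot be told apart in this spread. In AG z3, 416 genes lay at least 2 log2 units above the median of the other AG libraries. Of these, 266 were testis-higher genes, a class that held 43.6% of all genes tested. In testis z4, 290 genes lay as far above the other testis libraries. Of these, 128 were AG-higher genes, a class that held 10.1% of all genes tested. Both libraries had also entered the calls, and these shares were not tested. In the remaining AG libraries 18 to 107 genes were as far above, and in the remaining testis libraries 22 to 86.

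The calls were then read within each platform. Within the HiSeq 3000 libraries (3 AG and 2 testis), 1452 of the 1473 AG-higher genes (98.6%) and 6164 of the 6344 testis-higher genes (97.2%) kept a log2 difference of at least 1 in their direction. In the 1 AG and 1 testis library of the HiSeq 4000 the shares were 97.4% and 90.9%. In AG z3 against testis z4, both on the HiSeq 2500, they were 62.9% and 93.6%. Genes with the opposite sign numbered 50 and 34 in that pair, 3 and 8 on the HiSeq 4000, and 0 and 0 on the HiSeq 3000. These libraries had also entered the calls, which favours the same sign, and no share over all genes was set beside them. With the platform as a term in the model, 1464 of the AG-higher genes and 6294 of the testis-higher genes were still called.

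The strains were then fitted apart, which gives comparisons with no library in common. AG z3 and testis z4 were each 1 of the 2 reference-strain libraries of their organ. In the second strain alone, 1548 genes were higher in the AG, against 6363 in the testis. In the reference strain 1237 of those 1548 genes (79.9%) were at least 1 log2 unit higher in the AG, 36 had the opposite sign, and 627 passed the test on 2 against 2 libraries. Over all 14117 genes above 0 in both strains, 10.6% were at least 1 unit higher in the AG of the reference strain. Of the 6363 testis-higher genes, 5697 (89.5%) were at least 1 unit lower in the AG than in the testis of the reference strain, 83 had the opposite sign, and the share over all genes was 44.9%. The log2 differences of the strains had a Pearson correlation of 0.97 and a Spearman correlation of 0.93 across genes.

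The organ difference itself differed between strains for 253 genes, 1.74% of those tested (limma interaction, adjusted p under 0.05). The signed AG minus testis difference was higher in the second strain for 170 of them and lower for 83. Of the 170, 99 were testis-higher and 10 AG-higher genes, and of the 83, 48 and 6 were. The sign thus does not say in which strain the organs lay further apart. Of the 253, 90 were in neither list of organ calls, 50 had means under 1 TPM in both organs, and 5 had differences of opposite sign and at least 1 in both strains. AG z3 and testis z4 were both of the reference strain. A difference between strains and the departure of these libraries thus cannot be fully told apart. Without AG 106 or testis 48, the reference strain was left with only AG z3 or only testis z4 in that organ. The count of 253 genes was not stable. It was 1995 without AG 106, 1106 without testis 48, 496 without testis z4 and 97 without AG 8.

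The genes of largest interaction were mostly near 0 in one strain, where the fitted value depends on the pseudocount. The gene with the most negative value had 0.308, 0.455 and 0.440 TPM in the AG of the second strain, against 123 and 53.5 TPM in the AG of the reference strain. In the testis it had 7.58 and 6.07 TPM in the second strain and 4.72 and 3.48 TPM in the reference strain, so the strains lay far apart in the AG and close together in the testis (interaction -6.50 ± 0.55, SE, limma adjusted p = 0.00168). The next had 0.138, 0.0663 and 0.143 TPM in the AG of the second strain, against 113 and 153 TPM in that of the reference strain, with 2.37 TPM or less in any testis library. The most positive value belonged to a gene listed at 0 in both testis libraries of the second strain, against 34.4 and 71.7 TPM in the reference strain, and at 1.07 TPM or less in every AG library (interaction 5.14 ± 0.55, SE, limma adjusted p = 0.00496). Another gene was higher in the testis of the second strain, with 171 and 95.5 TPM against 13 and 8.27 TPM in the reference strain. All reads were aligned to the reference strain's genome. Where a gene was near 0 in the other organ, a lower level in the second strain and fewer alignable reads cannot be told apart. The gene with the most negative value was lower in the second strain in the AG only. The part of alignment in these values was not tested.

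Neighbouring serial numbers tended to carry the same call. The gene with the next number was also higher in the AG for 335 of the 1473 AG-higher genes (22.7%, against 9.78% over all genes), and the longest unbroken run held 12 AG-higher genes. Among testis-higher genes the share was 49.6%, against 42.1% over all genes, with a longest run of 24. How the numbers relate to position in the genome is not given in the sources used here, and this is a description with no test.

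Set beside the other 10 species, fitted the same way, D. biarmipes had the widest gap in the share of genes at 1 TPM or more, -20.9 percentage points, AG minus testis, against -19.4 to -11.3. Its testis mean, 74.8%, was above those of the others, 66.7% to 72.2%, while its AG mean, 54.0%, lay within their 48.7% to 57.1%. The share of genes higher in the AG was within the range of the others (7.69% to 12.2%), and so was the share higher in the testis (35.4% to 44.4%). With median-of-ratios factors the share higher in the AG, 21.0%, was again within the range of the others (16.6% to 23.3%), while the share higher in the testis, 30.9%, was just above theirs (25.6% to 30.8%). The gap in the share of the 10 most abundant genes, 29.1 points, was exceeded in 2 of the 10. The species have different annotations, and differences between them were not tested.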

How the data were processed

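Directional paired-end libraries of poly(A) RNA were sequenced in 16 runs for 9 libraries. The authors trimmed reads, aligned them with STAR (2.5.3) to Dbia_2.0 and quantified reference transcripts by StringTie (1.3.4 in the submitters' processing notes; the paper names another version). The deposited values are the authors' TPM per gene and library, read here as a signal because they do not sum to 1000000; how transcripts were summed to genes, and the read depth, are not given in the files. All per-sample columns were used, and none was left out; no library was a copy of another.

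Genes were matched by identifier. Those above 0 in at least 1 library were tested on log2(TPM + 1) with limma (3.58.1, R 4.3.3), moderated with a trend, with organ and strain as terms, and with their interaction for the strain comparison. P-values were adjusted by the Benjamini-Hochberg method over all 14541 genes, and a call needed an adjusted p under 0.05 and, for organs, a log2 difference of at least 1. A fold on this scale understates the change of low genes. Values per library were compared by two-sided exact permutation tests (scipy 1.17.1). The fitting steps were first run on simulated libraries with known differences, whose values are not quoted here. Libraries were grouped by organ and strain from the labels, and platform and dissector came from the study's sample sheet. The labels do not say whether libraries of a group came from separate rearings, so p-values measure the spread between these libraries.

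Named genes were to be the 10 called genes of largest difference in each direction without overlap between libraries, the 5 most abundant per organ and the 3 of largest interaction in each direction; without gene names, only the first 2 of each direction are printed. Marker lists by D. melanogaster symbol could not be matched. Alternatives covered the pseudocount, a filter on low means, 3 other scalings, the trend, the strain term, each strain alone, libraries left out in turn and both HiSeq 2500 libraries left out. The platform term, the calls under all 4 scalings and the organ-limited counts were added after the data were seen. The comparison and its lists were chosen with earlier results of these data known.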

Additional observations from a re-analysis of the deposited data

Results flagged for a closer look

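Dixon's test on the gap over the range marked the highest or lowest library of an organ in 8 of 38 groups of 4 or 5 libraries. Independent groups of normally spread values would give such a mark in about 1 of 20. The groups here reuse the same libraries and related values, so 8 of 38 cannot be set against that rate. AG z3 was far above the other AG libraries for dbia_gene6208 (62.3 TPM), for dbia_gene10674 (23.3 TPM), for the most abundant testis gene (1134.9 TPM) and for the share of TPM from the 1345 testis genes of large difference (0.608%). Testis z4 was far above the other testis libraries for the share of TPM from the 212 AG genes of large difference (1.89%), and its total of 922147 TPM was far below theirs. AG 106 was far above the other AG libraries for dbia_gene12982, with 31356 TPM. Testis 48 was marked as low for dbia_gene10674, with 2947 TPM against 3631 to 3717 TPM in the other testis libraries.

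The organ difference differed between the strains for 253 genes by the interaction test, a count that moved with most single libraries left out. AG z3 and testis z4, both of the reference strain, entered this test.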

How the results depend on the processing

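No paired analysis was possible because the AG and testis libraries share no replicate numbers. Of 1473 genes higher in the AG, the count became 3053 with median-of-ratios factors, 4790 after quantile normalization and 670 in the reference strain alone. The 6344 genes higher in the testis became 3417 after quantile normalization. Leaving out 1 library at a time gave 1300 to 1761 and 6067 to 6658 genes. With the platform as a term the counts were 1516 and 6314. The genes called under all 4 scalings (1197 and 3406) stayed within 1.5 times in each setting tried for them.

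The 253 genes of the strain interaction became 78 with a pseudocount of 0.1, 133 with a mean of at least 1 TPM, 92 after quantile normalization, 164 without the trend and 536 without AG z3 and testis z4. Single libraries left out gave 97 to 1995: 1995 without AG 106, 1106 without testis 48, 496 without testis z4, 228 without AG z3, 162 without testis 52, 133 without testis 78, 117 without AG 113 or AG 37 and 97 without AG 8. The cause was not tested.

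The difference of 29.1 points in the share of the 10 most abundant genes was 26.5 points without AG z3 and testis z4 (exact permutation p = 0.0571, the smallest that 4 against 3 allow), and 26.7 to 33.7 points with 1 library left out. The 23 AG-limited and 839 testis-limited genes became 69 and 1792 without AG z3 and testis z4; with 1 library left out they ranged from 23 to 54 and from 840 to 1686. All 48 alternatives for the 4 genes given by identifier kept their direction and call, though the size moved: with 1 library left out it ranged from 7.81 to 10.93 for dbia_gene8068. Depth is unknown in these files, which limits what genes near 0 can show.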
